A study of Mus musculus with 18 samples.

Results

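The genes followed here are 10 members of GLP-1 receptor and cAMP signalling in MIN6 cells, a mouse insulinoma line used as a β-cell model: the receptors Glp1r, P2ry1 and Ffar1, the G protein locus Gnas, the adenylyl cyclase Adcy6, the protein kinase A (PKA) subunits Prkaca and Prkar1a, the exchange factor Rapgef4, the phosphatase inhibitor Ppp1r1a and the transcription factor Creb1. They were taken by name, and their reads were summed over the RefSeq transcripts that carry these symbols. All 10 had reads, of 17208 genes with reads, and all 10 were among the 9506 genes tested (a mean of at least 5 RPM, the read count scaled to the library total, over the libraries). Cells received the solvent DMSO for 18 h (control) or 200 µM cyclopiazonic acid for 1 h (CPA1) or 18 h (CPA18), so CPA1 was compared with a control that had been in DMSO for longer. CPA blocks the pump that loads calcium into the endoplasmic reticulum (ER). mRNA-seq (poly(A) RNA) and Ribo-seq (RNA fragments protected by ribosomes) were made from each treatment in 3 experiments, which gave 18 libraries of a single cell line with no genetic change. The replicate number in the labels marks a batch and is called the experiment here.

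In β-cells, the incretin hormone GLP-1 binds the receptor encoded by Glp1r, which couples to the G protein Gs and raises cAMP. cAMP releases the catalytic subunits of PKA from the regulatory subunits and also activates EPAC2, encoded by Rapgef4, and both branches amplify insulin secretion when glucose is high. PKA also phosphorylates CREB, which drives a set of target genes, and the inhibitor of protein phosphatase 1 encoded by Ppp1r1a, which then keeps PKA targets phosphorylated. FFAR1 and P2Y1, receptors for long-chain fatty acids and for ADP, act mainly through Gq and calcium and also promote secretion.

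Total counts ran from 520960 to 4755030 in mRNA-seq and from 168129 to 1083297 in Ribo-seq, with 168129, 203108 and 553842 in the Ribo-seq libraries of CPA18 and 392613 to 519309 in those of CPA1. The mitochondrial enzyme gene Lars2 took 4.75% to 54.8% of mRNA-seq reads, over 45% of them in each library of experiment 1, so a level set across experiments moves with that share. Within experiment 2 Lars2 took 7.19% in control, 38.1% in CPA1 and 5.46% in CPA18. Changes within that experiment therefore move with this share too, and the block does not remove it. In Ribo-seq Lars2 took 0.0830% to 3.51% of reads, and what the mRNA-seq reads on it stand for was not tested. The insulin genes Ins1 and Ins2 together took 6.38% to 20.9% of mRNA-seq reads in control and CPA1 and 1.44% to 5.06% in CPA18. The summed level of the 10 β-cell markers, of which insulin is the bulk, was 87988 to 250230 RPM in control mRNA-seq and 25552 to 75757 in CPA18. All 10 had reads in every group. Acinar, fibroblast, leukocyte and endothelial markers were at or near 0 (at most 5.42 RPM summed in any library), α-cell markers summed to at most 265 RPM and duct markers to 164 to 618 RPM. Of 5 ER stress genes checked, all rose at 18 h in both assays, while at 1 h Hspa5, which encodes the chaperone BiP, passed in neither assay, and Trib3 and Herpud1 passed in Ribo-seq alone. Ddit3, which encodes the stress factor CHOP, went from 1.37 to 8.49 RPKM in control Ribo-seq to 55.5 to 113 in CPA1 and 233 to 428 in CPA18. The part of these shifts in the results for the receptor pathway was not tested, and in these bulk libraries fewer cells with an RNA and less of it per cell cannot be told apart. For 2 control libraries of experiment 2 the title and the description name different assays, so counts are also given without them.

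The sequences upstream of Glp1r, P2ry1 and Rapgef4 are shown. These genes were lower after 18 h in both assays and each has a single start site in the promoter set searched. Other Rapgef4 transcripts begin at chr2:72054617, a start that is not in that set. The 250 bases before the start sites searched held 73.2%, 70.8% and 73.6% GC, against a median of 52.4% over 32851 mouse promoters. Ffar1 meets the same conditions, but its window held 56.4% GC, and only a stretch of it is printed below. A high GC share is not particular to the 3 genes shown. The most GC-rich start sites of Gnas and of Prkar1a held 80.0% and 80.4%, and the changes of Prkar1a did not pass the test. The sequences shown come from RefSeq on GRCm38.p6, plus strand, at chr17:30901617-30901866, chr3:61002535-61002784 and chr2:71980965-71981214. Capitals mark the GC box GGGCGG on either strand, where matches may overlap.
Glp1r: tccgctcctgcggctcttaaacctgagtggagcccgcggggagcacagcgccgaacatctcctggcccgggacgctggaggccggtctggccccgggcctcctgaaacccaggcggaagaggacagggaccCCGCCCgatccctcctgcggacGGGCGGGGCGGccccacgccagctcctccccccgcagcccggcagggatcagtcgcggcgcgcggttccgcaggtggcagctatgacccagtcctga
P2ry1: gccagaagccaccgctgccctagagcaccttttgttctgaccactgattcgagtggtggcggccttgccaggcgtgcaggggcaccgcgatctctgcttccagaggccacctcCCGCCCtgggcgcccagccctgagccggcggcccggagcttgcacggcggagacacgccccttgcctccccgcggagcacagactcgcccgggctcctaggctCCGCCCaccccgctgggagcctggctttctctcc
Rapgef4: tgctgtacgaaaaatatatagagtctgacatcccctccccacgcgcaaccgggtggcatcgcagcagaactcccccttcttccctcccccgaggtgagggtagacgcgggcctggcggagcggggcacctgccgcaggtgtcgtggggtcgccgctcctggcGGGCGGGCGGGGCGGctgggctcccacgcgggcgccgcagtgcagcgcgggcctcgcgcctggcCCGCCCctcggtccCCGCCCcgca
Glp1r held 3 matches, P2ry1 2 and Rapgef4 5, and 32.7% of all promoters held at least 1. The box also preceded start sites of Prkar1a (up to 3 in a window), Prkaca (2), Gnas (up to 2) and Creb1 (1). The changes of Prkar1a and Creb1 did not pass the test. The window of Ffar1, which fell in both assays, held 0. A link between the box and the changes was not tested. The GC box was added to the search after this base composition was seen. On either strand, none of the 3 windows held the core TGACG of the cAMP response element, to which CREB binds (17.8% of all promoters had it), the CCAAT box (33.8%) or TGCTGAC, the core of the element bound by Maf factors (3.81%).

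Among the members, TGCTGAC was found before Ffar1 and before a start site of Prkar1a, and the full cAMP response element (1.55% of all promoters) only before that start site of Prkar1a, out of 8 members whose promoters were in the table. The stretches around these matches are printed to set the letters of a gene that fell beside those of a gene whose changes did not pass the test, at chr7:30861644-30861666 on the minus strand and chr11:109650892-109650915 on the plus strand, with the match in capitals.
Ffar1: atccttgaTGCTGACccgagttc
Prkar1a: aggcgcatTGACGTCAgcagccga
The match of Ffar1 begins 188 bases before the annotated start, which for this gene is the first base of the coding sequence, since its RefSeq transcript is a coding exon of 903 bases alone. The match of Prkar1a begins 49 bases before a start site and lies within an exon of other Prkar1a transcripts, where TGCTGAC overlaps it on the minus strand. These are matches of letters and not measured binding sites.

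In control cells the members covered a wide range of levels, given per length of transcript as RPKM (the read count scaled to transcript length and library total). In mRNA-seq the order of the means was Gnas (617 ± 69.6 RPKM, SD, n = 3), Ppp1r1a (298 ± 139), Prkar1a (154 ± 21.4), Prkaca (141 ± 48.0), Glp1r (84.2 ± 47.8), Ffar1 (33.9 ± 20.7), P2ry1 (19.5 ± 7.59), Rapgef4 (11.8 ± 7.27), Adcy6 (1.33 ± 0.0970) and Creb1 (0.635 ± 0.658). Only Gnas and Ppp1r1a, and Rapgef4 and Adcy6, were neighbours in this order whose ranges did not overlap. In Ribo-seq the order was Gnas (1232 ± 175 RPKM), Ffar1 (280 ± 36.8), Prkar1a (252 ± 17.5), Glp1r (237 ± 19.7), Ppp1r1a (98.4 ± 25.9), Prkaca (85.5 ± 15.2), P2ry1 (61.8 ± 26.7), Rapgef4 (14.6 ± 1.07), Adcy6 (1.81 ± 0.960) and Creb1 (0.891 ± 0.124). Ffar1 thus stood second among the footprints and sixth in mRNA-seq. RefSeq also lists 11 model transcripts each for Adcy6 and Creb1, 8 for Gnas and 5 for Rapgef4, and 2 further curated transcripts of Prkar1a, which the tables used here do not include, so reads unique to those are not in these levels, while Glp1r, Ffar1, P2ry1, Prkaca and Ppp1r1a have no such models.

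**Figure D1:**
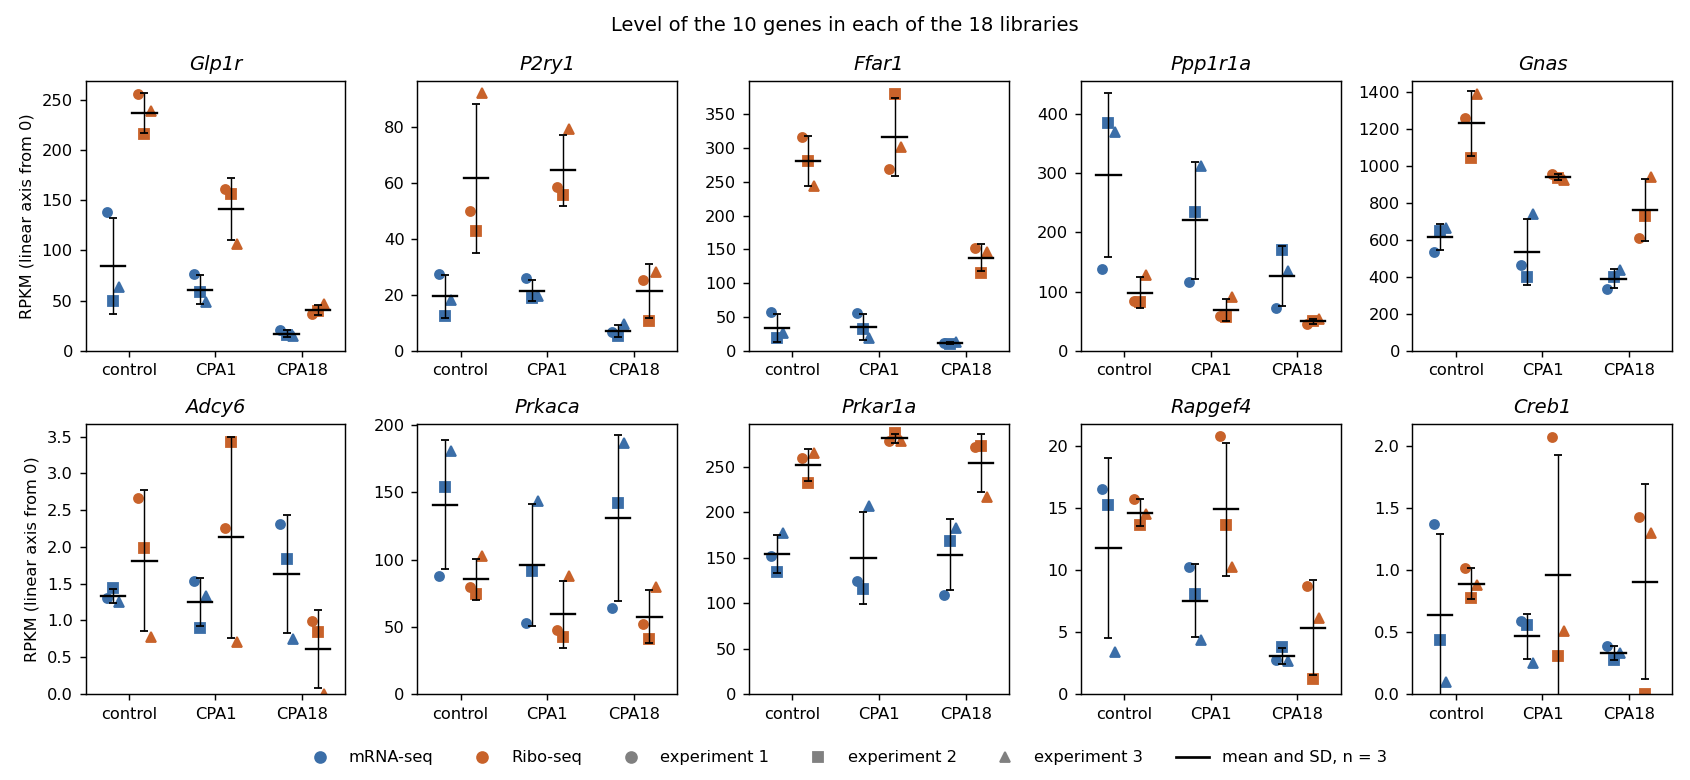
RPKM of each of the 10 genes (linear axes from 0, a scale per gene) in control, CPA1 and CPA18, for mRNA-seq (blue) and Ribo-seq (orange), with a symbol per experiment and the mean and SD of 3 libraries. All Ribo-seq values of Glp1r in CPA18 (36.2 to 46.4) sit below all those in CPA1 (106 to 161), and these below all control values (217 to 256).

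Glp1r, which lies at chr17:30901867-30936510 on the plus strand (GRCm38.p6) with 13 exons, fell the most among the members. Its mRNA-seq level was 139, 49.7 and 64.0 RPKM in control, 76.2, 58.5 and 48.2 in CPA1 and 20.7, 16.1 and 14.3 in CPA18 (experiments 1, 2 and 3). Its Ribo-seq level was 256, 217 and 239 RPKM in control, 161, 157 and 106 in CPA1 and 36.2, 39.9 and 46.4 in CPA18. In mRNA-seq the CPA18 libraries were all below the others and the CPA1 libraries overlapped control, with the control library of experiment 1 far above the other two, while in Ribo-seq the treatments did not overlap at all. After 18 h Glp1r was 4.54-fold lower than control in mRNA-seq (log2 change -2.18 ± 0.30, SE, edgeR adjusted p = 1.49e-05) and 5.46-fold lower in Ribo-seq (-2.45 ± 0.24, edgeR adjusted p = 9.38e-22), on reads that came down to 9 in the shallowest CPA18 Ribo-seq library. These were the 88th lowest of 9506 and the 41st lowest of 9502 changes. After 1 h the Ribo-seq level had fallen 1.69-fold (-0.76 ± 0.19, edgeR adjusted p = 0.00323, or 0.0548 without the experiment as a block), and the mRNA-seq change was -0.36 ± 0.28 (edgeR adjusted p = 0.974). Between CPA1 and CPA18 it fell by 1.82 (SE 0.29, edgeR adjusted p = 9.42e-05) and 1.69 (SE 0.26, edgeR adjusted p = 2.03e-09) on the log2 scale in the respective assays.

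P2ry1 and Ffar1, the receptors outside the Gs branch, fell between 1 h and 18 h. P2ry1 (chr3:61002785-61008982) had mRNA-seq levels of 27.6, 12.6 and 18.2 RPKM in control, 25.9, 19.0 and 19.6 in CPA1 and 6.68, 5.34 and 9.41 in CPA18. Its Ribo-seq levels were 50.0, 43.0 and 92.3 in control, 58.7, 55.7 and 79.4 in CPA1 and 25.4, 10.5 and 28.3 in CPA18. CPA18 was below control and CPA1 without overlap in both assays, and CPA1 overlapped control in both. Against control, the CPA18 change was -1.37 ± 0.30 in mRNA-seq (edgeR adjusted p = 0.00213) and -1.53 ± 0.24 in Ribo-seq (edgeR adjusted p = 1.1e-08), and the CPA1 changes were 0.21 ± 0.29 and 0.11 ± 0.19 (edgeR adjusted p = 0.983 and 0.857).

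Ffar1 (chr7:30860568-30861470, minus strand) had mRNA-seq levels of 57.4, 18.2 and 26.2 RPKM in control, 55.4, 32.2 and 18.1 in CPA1 and 10.7, 9.78 and 12.3 in CPA18. Its footprints stood at 317, 281 and 243 RPKM in control, 269, 381 and 301 in CPA1 and 152, 115 and 146 in CPA18. All CPA18 libraries were below all others in both assays. The CPA18 change against control was -1.42 ± 0.38 in mRNA-seq (edgeR adjusted p = 0.00815) and -0.99 ± 0.22 in Ribo-seq (edgeR adjusted p = 9.61e-05). Against CPA1 it was -1.52 ± 0.37 (edgeR adjusted p = 0.00409) and -1.17 ± 0.23 (edgeR adjusted p = 5.17e-06). At 1 h the values were 0.10 ± 0.36 and 0.17 ± 0.19, neither of which passed the test.

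Gnas, the imprinted locus of the Gs α subunit (chr2:174284320-174346744), was the most abundant member and fell by less. In mRNA-seq it stood at 537, 647 and 666 RPKM in control, 465, 401 and 739 in CPA1 and 333, 400 and 436 in CPA18. In Ribo-seq it stood at 1262, 1044 and 1391 in control, 958, 934 and 926 in CPA1 and 613, 731 and 942 in CPA18. The CPA18 libraries lay below control without overlap in both assays. The CPA18 change was -0.76 ± 0.24 in mRNA-seq (edgeR adjusted p = 0.0194) and -0.71 ± 0.15 in Ribo-seq (edgeR adjusted p = 2.64e-05), and the CPA1 values of -0.26 ± 0.24 and -0.36 ± 0.14 did not pass (edgeR adjusted p = 0.979 and 0.143). The locus also encodes other proteins from other first exons, and its 11 transcripts were therefore split as an alternative chosen after seeing the data. The 9 transcripts that share the last exon, among them those of Gs α, gave -0.85 ± 0.24 in mRNA-seq (edgeR adjusted p = 0.0113) and -0.73 ± 0.15 in Ribo-seq (edgeR adjusted p = 1.62e-05). Transcript variant 4, which encodes secretogranin VI and ends early, held 6.85% of Gnas reads in mRNA-seq and gave 0.26 ± 0.28 there (edgeR adjusted p = 0.514), and variant 6 gave 0.081 ± 0.39 (edgeR adjusted p = 0.896). In Ribo-seq variant 4 gave -0.11 ± 0.29 (edgeR adjusted p = 0.828) and variant 6 -0.64 ± 0.32 (edgeR adjusted p = 0.124). Between CPA1 and CPA18 variant 6 fell in Ribo-seq (-1.01 ± 0.32, edgeR adjusted p = 0.0139). Reads on exons shared by transcripts were divided among them, and the difference between these groups of transcripts was not tested.

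Adcy6, an adenylyl cyclase at chr15:98589978-98610287 on the minus strand, was near the limit of detection. It had 4, 14 and 18 reads in control mRNA-seq, 15, 8 and 15 in CPA1 and 17, 52 and 8 in CPA18, and 13, 11 and 5 reads in control Ribo-seq, 7, 8 and 2 in CPA1 and 1, 1 and 0 in CPA18. The mRNA-seq ranges in RPKM overlapped throughout, and the low Ribo-seq counts of CPA18 came from libraries in which 3 reads stand for 17.8, 14.8 and 5.42 RPM. The estimated Ribo-seq change at 18 h was -1.81 with a 95% interval of -3.69 to 0.08 (edgeR adjusted p = 0.16), which rests on 2 reads in 3 libraries. A change in Adcy6 was not detectable at this depth.

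Of the PKA subunits, only Prkaca passed the test, and only in Ribo-seq at 18 h against control. Prkaca, the catalytic subunit α (chr8:83972978-83996444), stood at 87.6, 154 and 181 RPKM in control mRNA-seq, 52.7, 91.6 and 143 in CPA1 and 64.0, 142 and 186 in CPA18. In Ribo-seq it stood at 79.6, 74.1 and 103 in control, 47.3, 42.5 and 87.8 in CPA1 and 52.3, 41.0 and 79.2 in CPA18. The ranges overlapped in each comparison of both assays, but within each experiment CPA1 was below control in both assays and CPA18 was below control in Ribo-seq. In mRNA-seq of experiment 2, the Lars2 share was higher in CPA1 than in control (38.1% and 7.19%). The CPA18 change in Ribo-seq passed the test by a small margin (-0.59 ± 0.23, edgeR adjusted p = 0.0427, or 0.189 without the block), and that in mRNA-seq did not (-0.17 ± 0.23, edgeR adjusted p = 0.616). At 1 h the changes were -0.60 ± 0.23 and -0.57 ± 0.21, with an unadjusted p of 0.0153 and 0.0067, and did not pass after adjustment (edgeR adjusted p = 0.629 and 0.101).

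Prkar1a, the regulatory subunit Iα (chr11:109649023-109669663), stayed close to its control level. It stood at 151, 134 and 177 RPKM in control mRNA-seq, 125, 116 and 207 in CPA1 and 109, 168 and 183 in CPA18, and at 260, 232 and 265 in control Ribo-seq, 279, 288 and 279 in CPA1 and 272, 273 and 217 in CPA18. Control and CPA18 overlapped in both assays, whereas the CPA1 Ribo-seq libraries were above all control libraries. The CPA18 change was -0.02 (95% interval -0.47 to 0.44) in mRNA-seq and 0.00 (-0.31 to 0.31) in Ribo-seq, so on this scale a fall as large as that of Glp1r is outside both intervals. Its value between CPA1 and CPA18 in mRNA-seq depended on the scaling (0.07 ± 0.23 on library totals, and -0.38 with an edgeR adjusted p of 0.0406 after TMM scaling).

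Rapgef4, which encodes EPAC2 (chr2:71981215-72257474), fell after 18 h in both assays. In mRNA-seq it stood at 16.6, 15.3 and 3.40 RPKM in control, 10.2, 8.03 and 4.37 in CPA1 and 2.73, 3.77 and 2.64 in CPA18. In Ribo-seq it stood at 15.8, 13.6 and 14.5 in control, 20.8, 13.6 and 10.3 in CPA1 and 8.72, 1.17 and 6.13 in CPA18. The control libraries of experiments 1 and 2 were high in mRNA-seq and that of experiment 3 was low enough to overlap CPA18, while in Ribo-seq CPA18 lay below all others, on 6, 1 and 14 reads. The CPA18 change was -1.69 ± 0.37 in mRNA-seq (edgeR adjusted p = 0.00211) and -1.38 ± 0.37 in Ribo-seq (edgeR adjusted p = 0.00191). Transcript variant 4, a short form with an early last exon of mostly non-coding sequence, took 7.14% to 79.8% of the Rapgef4 reads of a mRNA-seq library, including 79 of 99 in control experiment 2, and 12.3% of all its Ribo-seq reads. Without that variant the CPA18 change was -1.48 ± 0.42 in mRNA-seq (edgeR adjusted p = 0.0127) and -1.36 ± 0.39 in Ribo-seq (edgeR adjusted p = 0.00377).

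Ppp1r1a, which encodes inhibitor 1 of protein phosphatase 1 (chr15:103530279-103538027, minus strand), fell at 18 h as well. It stood at 138, 385 and 371 RPKM in control mRNA-seq, 116, 235 and 312 in CPA1 and 71.5, 171 and 135 in CPA18. In Ribo-seq it stood at 83.7, 83.1 and 128 in control, 59.5, 57.0 and 90.2 in CPA1 and 46.0, 49.4 and 53.0 in CPA18. The experiments differed more than the treatments in mRNA-seq, where experiment 1 was low throughout and the ranges overlapped, but within each experiment CPA18 was below CPA1 and CPA1 below control. In experiment 2 the Lars2 share was higher in CPA1 than in control (38.1% and 7.19%). The CPA18 change was -1.19 ± 0.24 in mRNA-seq (edgeR adjusted p = 0.000874, or 0.253 without the block) and -1.04 ± 0.28 in Ribo-seq (edgeR adjusted p = 0.00167). At 1 h it was -0.40 ± 0.23 and -0.51 ± 0.24, which did not pass (edgeR adjusted p = 0.919 and 0.257).

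Creb1, the CREB gene itself (chr1:64532794-64604548), had 2 to 11 reads per mRNA-seq library and 0 to 9 per Ribo-seq library. Its levels of 0.0985 to 1.37 RPKM in mRNA-seq and 0 to 2.07 in Ribo-seq overlapped between all treatments. The 95% interval of the CPA18 change was -1.80 to 0.87 in mRNA-seq and -1.27 to 1.62 in Ribo-seq, so no change was detectable at this depth.

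At 18 h, 6 of the 10 members passed the test against control in mRNA-seq, all of them lower (Glp1r, Rapgef4, Ffar1, P2ry1, Ppp1r1a and Gnas), where 28.8% of the genes tested passed in either direction and 7.92% were lower. In Ribo-seq 7 passed, the same 6 and Prkaca, all lower, against 24.9% of genes in either direction and 5.7% lower. The members had a median log2 change of -0.98 (mRNA-seq) and -1.01 (Ribo-seq), beside 0.31 and 0.38 over the genes tested. The libraries did not overlap, with CPA18 below control, for 4 members in mRNA-seq (5.84% of genes) and 6 in Ribo-seq (9.12% of genes), and no member lay above (14.5% and 25.6% of genes did). Without the 2 control libraries of experiment 2 the counts were 5, with Gnas at -0.60 (edgeR adjusted p = 0.222), and 6, with Prkaca at -0.49 (edgeR adjusted p = 0.21). In that setting 1566 of 9506 genes passed in mRNA-seq (412 lower) and 1629 of 9502 in Ribo-seq (410 lower). Without the block, 1 member passed in mRNA-seq (Glp1r, edgeR adjusted p = 0.0374, where 1.58% of genes passed) and 6 in Ribo-seq (20.7% of genes). Leaving out experiment 1 left 2 members in mRNA-seq, Glp1r and Ppp1r1a, both lower, where 1798 of 9506 genes passed and 242 of them were lower.

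At 1 h against control no member passed in mRNA-seq (1 had an unadjusted p under 0.05, and DESeq2 also called 0), where 0.231% of genes passed, all higher. In Ribo-seq 1 passed, Glp1r, where 4.75% of genes passed, 2.05% lower and 2.69% higher, and none did so without the block, where 2.36% of genes passed. Glp1r and Gnas lay below control without overlap in Ribo-seq (7.88% of genes) and Prkar1a above (9.93%), while in mRNA-seq no member lay below (2.05% of genes) or above (1.77%). Between CPA1 and CPA18, 5 members passed in mRNA-seq, all lower (Glp1r, P2ry1, Ffar1, Rapgef4 and Ppp1r1a), where 30.4% of genes passed, 4.69% lower and 25.7% higher, and none without the block, where 1.18% of genes passed. In Ribo-seq 4 passed, all lower (Glp1r, P2ry1, Ffar1 and Rapgef4), where 18.5% of genes passed, 5.04% lower and 13.4% higher. CPA18 lay below CPA1 without overlap for 4 members in mRNA-seq (5.35% of genes) and 6 in Ribo-seq (8.12%), and above for none (15.4% and 20.4% of genes). The comparisons share libraries and are not independent of each other. Changes are relative to the library total: TMM scaling moved the median gene at 18 h from 0.31 to -0.05 in mRNA-seq and from 0.38 to 0.00 in Ribo-seq. With it the genes that passed went from 1983 higher and 753 lower to 1265 and 1537 in mRNA-seq, and from 1823 and 542 to 844 and 1073 in Ribo-seq, while 7 members passed in each assay, all lower.

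**Figure D2:**
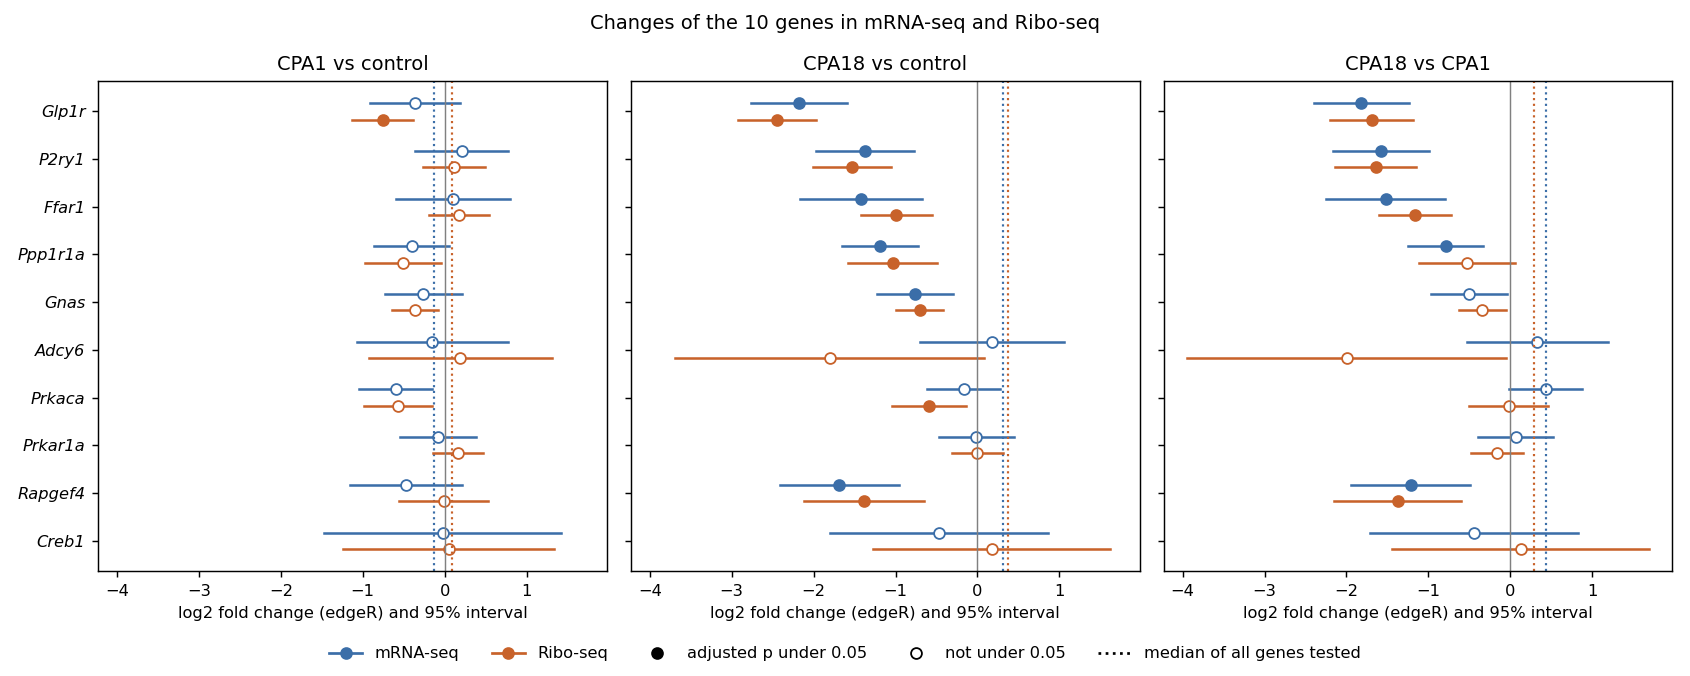
log2 fold changes from edgeR with 95% intervals (horizontal axis) for the 10 genes in mRNA-seq (blue) and Ribo-seq (orange), in 3 comparisons, with filled points for an adjusted p under 0.05 and dotted lines at the median of all genes tested. At CPA18 against control Glp1r lies at -2.18 and -2.45, and Prkar1a at -0.02 and 0.00, while Adcy6 and Creb1 have the widest intervals.

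Ribosome occupancy, the Ribo-seq level divided by the mRNA-seq level of a gene, differed widely between the members in each treatment. Ffar1 had ratios of 5.52, 15.5 and 9.28 in control, 4.86, 11.8 and 16.6 in CPA1 and 14.2, 11.7 and 11.9 in CPA18, where the median gene had 0.955 to 1.97. That placed Ffar1 between the 93.3rd and the 99.1st percentile of the genes in each experiment. Ppp1r1a stood at the other end, with 0.607, 0.216 and 0.346 in control, 0.514, 0.243 and 0.289 in CPA1 and 0.643, 0.289 and 0.392 in CPA18, between the 3.01st and the 16.1st percentile. Footprints fall on coding sequence, and the coding share of the transcript with most reads was 100% for Ffar1 and 39.8% for Ppp1r1a. P2ry1 (28.8% coding) and Prkar1a (29.1%) had mean control ratios of 3.43 and 1.65, and Glp1r (94.1% coding) 3.31. Gnas had 2.02, summed over transcripts that ranged from 30.4% to 96.2% coding. A link between coding share and ratio was not tested. The ratios of Glp1r were 1.84, 4.36 and 3.73 in control, 2.12, 2.68 and 2.21 in CPA1 and 1.75, 2.49 and 3.25 in CPA18, and overlapped.

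A change of ribosome occupancy was tested as the difference between the Ribo-seq and mRNA-seq changes, and no member passed in any comparison with edgeR or DESeq2. Few genes did so at all, 0.0421% at 1 h and 0.189% at 18 h against control and 0.0105% between them, with 575, 785 and 470 genes at an unadjusted p under 0.05. The 95% intervals at 18 h were -1.04 to 0.45 for Glp1r, -0.93 to 0.59 for P2ry1, -0.40 to 1.23 for Ffar1, -0.50 to 0.84 for Ppp1r1a, -0.50 to 0.62 for Gnas and -0.84 to 1.39 for Rapgef4. They were wider for Creb1 (-1.37 to 2.59) and Adcy6 (-4.07 to -0.02). The interval of Adcy6 leaves out 0 although its test does not pass, since the intervals are narrower than the test. Adcy6 had the lowest value (-2.04 ± 1.03, unadjusted p = 0.0559, edgeR adjusted p = 0.611), again on 2 CPA18 Ribo-seq reads, and Prkaca stood at -0.44 (-1.04 to 0.16).

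**Figure D3:**
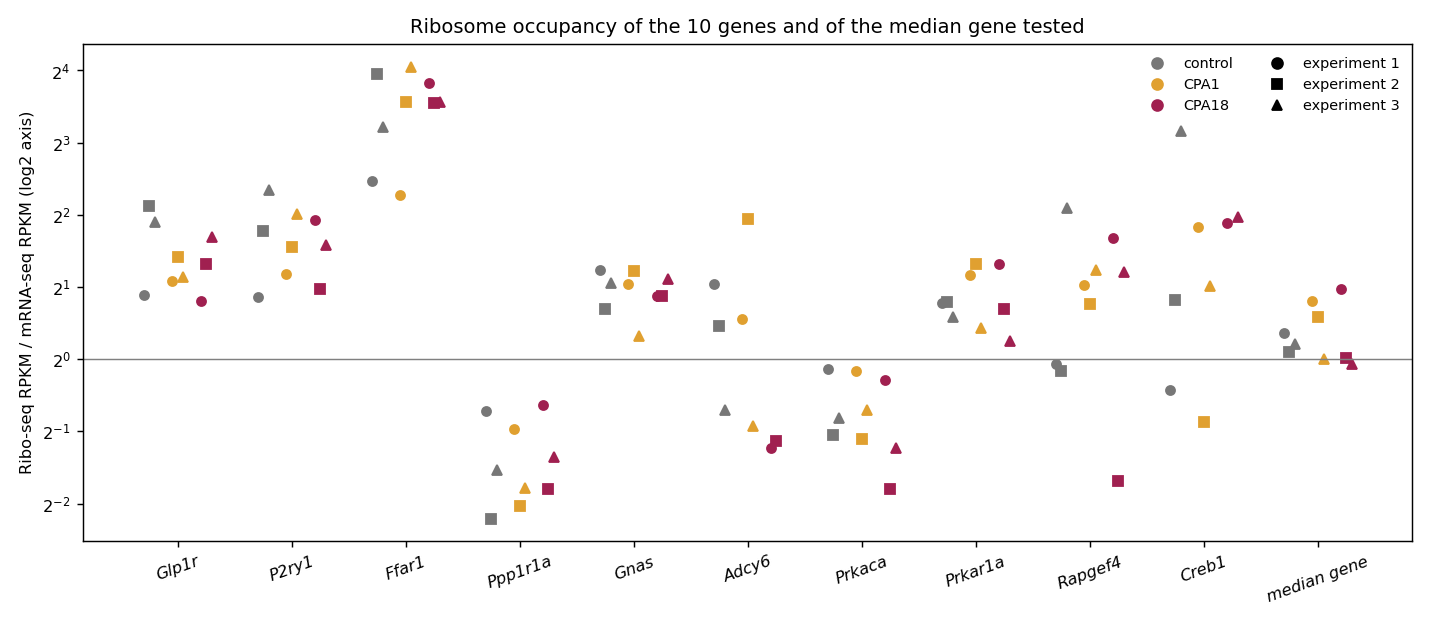
Ribo-seq RPKM divided by mRNA-seq RPKM (log2 axis) for the 10 genes and for the median gene tested, per experiment (symbols) in control (grey), CPA1 (yellow) and CPA18 (red). Ffar1 lies between 4.86 and 16.6 and Ppp1r1a between 0.216 and 0.643 in all experiments, and points with 0 Ribo-seq reads (Adcy6 and Creb1, CPA18) are not drawn.

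The genes whose level followed that of Glp1r most closely over the 18 libraries were Ece1 (Pearson r = 0.962 of log2(RPM + 0.5)), Cdh1 (0.956), Hepacam2 (0.953), Gpd2 (0.951) and Slc2a2 (0.948). Ece1 encodes an endothelin-converting enzyme, Cdh1 E-cadherin, Gpd2 the mitochondrial glycerol-3-phosphate dehydrogenase and Slc2a2 the glucose transporter GLUT2. Slc2a2 went from a mean of 24.4 RPKM in control to 1.95 in CPA18 mRNA-seq, and stood at 11.5 in CPA18 Ribo-seq against 72.8 in CPA1. Among the other members the r with Glp1r was 0.884 for P2ry1, 0.791 for Ffar1, 0.780 for Gnas and 0.773 for Rapgef4, and it was -0.154 for Ppp1r1a and -0.325 for Prkaca. These values are descriptions, since the points share treatments, assays and experiments, and the offset between mRNA-seq and Ribo-seq enters them.

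Of 133 other genes of the pathway, 91 were tested. At 18 h against control 27 passed in mRNA-seq, 20 lower and 7 higher, beside 28.8% of all genes (7.92% lower and 20.9% higher). The median change of the 91 genes was -0.31. In Ribo-seq 19 passed, 13 lower and 6 higher, beside 24.9% of all genes (5.7% lower and 19.2% higher), with a median of -0.15. None passed for ribosome occupancy in any comparison. These counts moved with the scaling. After TMM, 33 were lower and 5 higher in mRNA-seq, where 1537 of 9506 genes were lower and 1265 higher. In Ribo-seq 30 were lower and 4 higher, where 1073 of 9502 genes were lower and 844 higher. Without the block 0 passed in mRNA-seq (1.58% of genes did) and 17 in Ribo-seq (20.7% of genes). Leaving out experiment 1 gave 7 lower and 9 higher in mRNA-seq, where 242 of all genes tested were lower and 1556 higher.

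Among 14 other receptors tested, 4 passed in mRNA-seq (3 lower, 1 higher) and 3 in Ribo-seq (1 lower, 2 higher), near the shares of all genes (28.8% and 24.9%). Galr1, a galanin receptor that couples to Gi, fell (log2 change -1.59 ± 0.32 in mRNA-seq and -0.96 ± 0.22 in Ribo-seq), and Sstr3, a somatostatin receptor that also couples to Gi, rose (1.92 ± 0.32 and 1.34 ± 0.33). Sstr3 had 6.15 to 9.92 RPKM in control mRNA-seq and 19.9 to 39.5 in CPA18, with no overlap. Of 14 G protein subunits, 6 passed in mRNA-seq (4 lower, 2 higher) and 3 in Ribo-seq (2 lower, 1 higher), beside the same shares of all genes. Gng5 rose from 35.9, 71.6 and 53.6 RPKM to 126, 445 and 319 in mRNA-seq and from 29.6, 40.2 and 56.9 to 434, 497 and 338 in Ribo-seq (2.43 ± 0.34 and 3.25 ± 0.28), while Gng12 (-1.18 ± 0.26 and -0.88 ± 0.20) and Gnaq, the Gq α subunit through which FFAR1 and P2Y1 signal (-1.03 ± 0.37 and -0.83 ± 0.29), fell. Of 8 receptor kinases, arrestins and RGS proteins, 2 passed in mRNA-seq (1 lower, 1 higher) and 1 in Ribo-seq (lower), beside 28.8% and 24.9% of all genes. Rgs4, which speeds the shut-off of Gi and Gq, fell from 17.1 to 49.9 RPKM in control to 5.46 to 6.63 in CPA18 mRNA-seq (-2.10 ± 0.35), and by 2.30 (SE 0.34) on the log2 scale in Ribo-seq. The changes of these 6 genes passed the edgeR test in both assays.

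Further down the pathway, Akap12, an anchor of PKA, fell (-2.44 ± 0.49 in mRNA-seq and -1.32 ± 0.42 in Ribo-seq), as did Pclo, a partner of EPAC2 at secretory sites (-1.04 ± 0.39 with an edgeR adjusted p of 0.0492, and -1.14 ± 0.35). The phosphatase 1 regulators Ppp1r11 (1.07 ± 0.27 and 1.38 ± 0.32) and Ppp1r15b, which directs the phosphatase to eIF2α (1.78 ± 0.26 and 2.02 ± 0.20), rose, whereas Ppp1r1a fell. In mRNA-seq 2 of 13 genes of the PKA class, 1 of 3 of the EPAC class and 2 of 6 of the phosphatase 1 class passed (28.8% of all genes). In Ribo-seq 1, 2 and 2 passed (24.9% of all genes). Neither adenylyl cyclase that could be tested besides Adcy6 passed, and of 7 phosphodiesterases 2 passed in mRNA-seq, both lower, a share near the 28.8% of all genes, and 0 in Ribo-seq (edgeR).

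Most targets of CREB that passed the test were higher at 1 h and lower at 18 h. At 1 h, 7 of 9 targets tested passed in Ribo-seq, 6 of them higher and Pam lower, beside 4.75% of all genes, and 2 passed in mRNA-seq, both higher, beside 0.231%. Fos, an immediate early gene, stood at 67.6, 93.3 and 38.5 RPKM in control Ribo-seq, 543, 803 and 384 in CPA1 and 22.6, 21.0 and 46.2 in CPA18, so CPA1 was above all others and CPA18 overlapped control. Its changes were 3.12 ± 0.18 at 1 h (edgeR adjusted p = 2.78e-62) and -0.77 ± 0.24 at 18 h (edgeR adjusted p = 0.00785), the latter kept past the threshold by 9 of 15 alternatives. Nr4a1, an orphan nuclear receptor, stood at 20.2, 37.4 and 108 RPKM in control Ribo-seq, 185, 212 and 268 in CPA1 and 4.70, 5.83 and 23.5 in CPA18, with changes of 2.25 ± 0.19 and -2.04 ± 0.29. Sik1, a kinase that holds CREB coactivators in check and is itself a target, gave 1.87 ± 0.23 at 1 h and -1.95 ± 0.37 at 18 h in Ribo-seq. At 18 h 6 of the 9 targets passed in Ribo-seq, 5 of them lower and Bdnf higher, beside 24.9% of all genes (5.7% lower), and 4 in mRNA-seq, all lower, beside 28.8% (7.92% lower). Pam and Bdnf were named after their values were seen. These genes also respond to other signals, calcium among them.

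**Figure D4:**
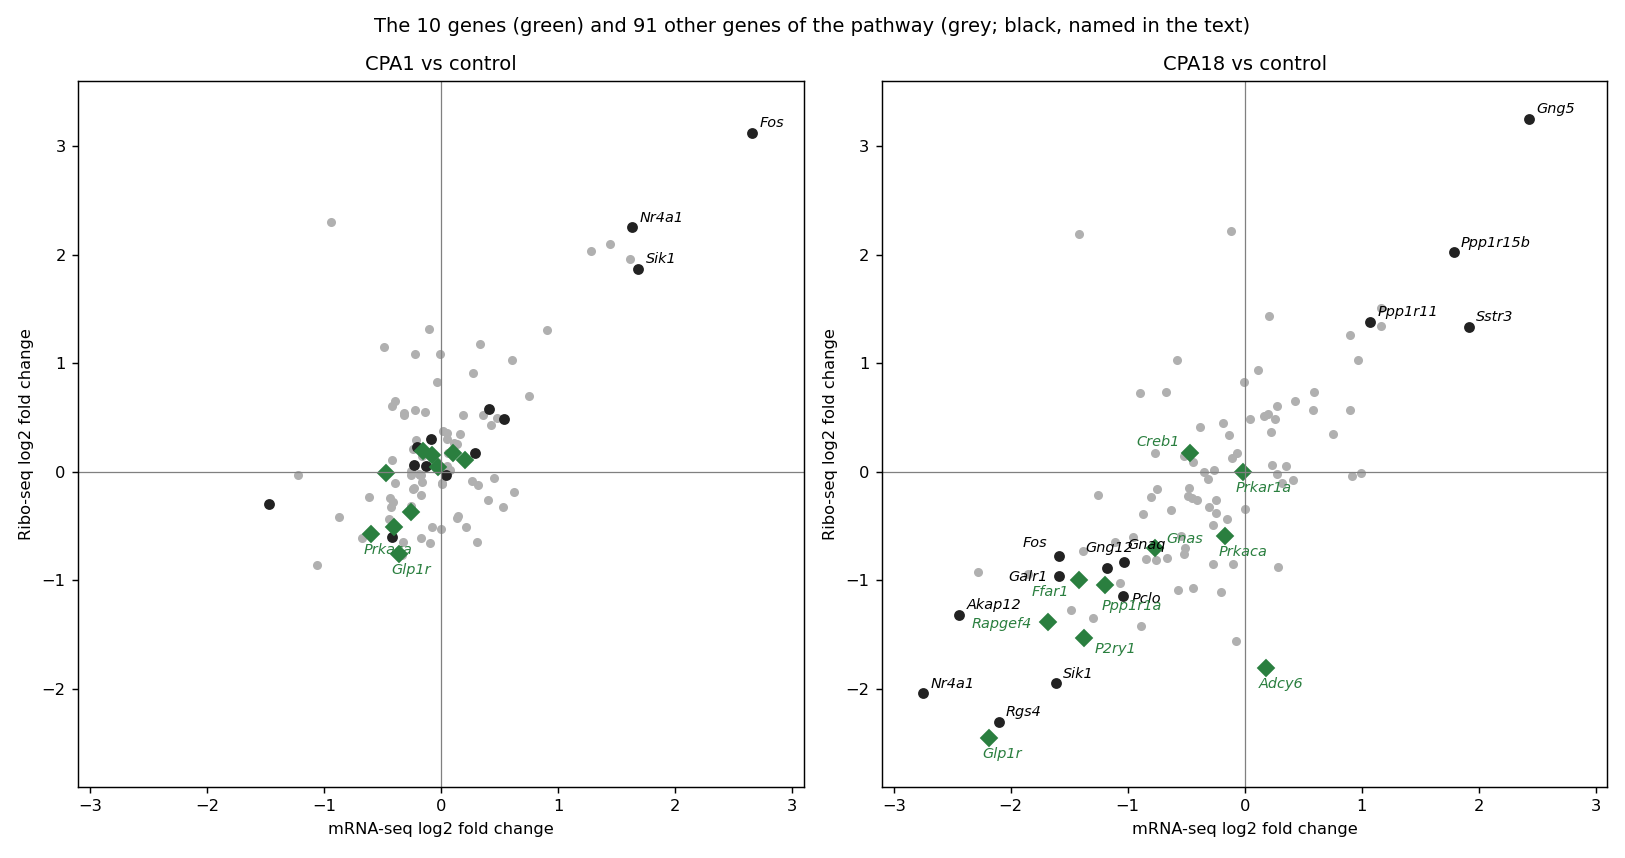
log2 fold changes against control in mRNA-seq (horizontal) and Ribo-seq (vertical) for the 10 genes (green diamonds) and 91 other genes of the pathway (grey or black), at CPA1 (left) and CPA18 (right). Black marks the pathway genes past the threshold at CPA18 against control in both assays, so Pam and Bdnf are grey. Fos, Nr4a1 and Sik1 lie at the upper right at CPA1 and at the lower left at CPA18, where Glp1r is at -2.18 and -2.45 and Gng5 at 2.43 and 3.25.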

How the data were processed

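MIN6 cells were profiled by mRNA-seq and Ribo-seq in 3 treatments and 3 experiments (18 libraries). The authors selected reads by quality and length, aligned them to the mouse RNA reference of GRCm38 with Bowtie2 and deposited, for each RefSeq NM_ transcript, raw counts, values scaled to library size and RPKM, with the transcript length in nucleotides. The deposited RPKM differed from that recomputed from the counts by at most 0.00111 on the log2 scale. Of 30741 transcripts, 30227 matched a RefSeq gene with their version, 478 without it and 36 not at all, and counts and RPKM were summed per gene (17208 genes). Over 830 genes with 2 transcripts of like counts, the split of reads between the transcripts varied as for a random division (median chi-square per degree of freedom 1.01), so summing does not count a read again.

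Counts were tested with edgeR's quasi-likelihood test (edgeR 4.0.16, R 4.3.3), with the library total as size, genes of at least 5 RPM on average over 18 libraries, and the experiment as a block, and the Benjamini-Hochberg adjustment covered every gene tested (threshold 0.05). For ribosome occupancy the tested term was the interaction between treatment and assay. Intervals are 95% intervals from the SE and a normal quantile. They are narrower than the edgeR test itself implies, so an interval can leave out 0 where the unadjusted p is over 0.05. The replicate number is named a batch in the labels, which is where the pairing comes from. Deviations from treatment means correlated between libraries of an experiment in each of 9 pairs (mean r = 0.542, lowest 0.229) in mRNA-seq, and with a mean r of 0.0983 (lowest 0.0662) in Ribo-seq. Control libraries of experiment 2 were placed by their titles. The mRNA-seq one correlated with the other control mRNA-seq libraries at 0.719 and 0.900 and with Ribo-seq at 0.581 and 0.609. Nothing in the labels says whether the experiments were separate cultures, and the study describes them as independent. Total counts set the precision: 3 reads, taken as the floor, stand for 0.631 to 17.8 RPM. Floors and intervals cover counting error or the spread between these libraries only.

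The members, the pathway list and the tests were chosen with earlier results of these data known. Named are the 10 members, and pathway genes past the threshold at CPA18 against control in both assays or in ribosome occupancy. Slc2a2, Ece1, Cdh1, Hepacam2 and Gpd2 are the 5 tested genes with the highest correlation with Glp1r. Alternatives were other scalings (TMM, totals without Ins1, Ins2 and Lars2, centring on the median gene), DESeq2 1.42.0, limma 3.58.1 on log2(RPKM + 0.5) and on log2(RPKM + 1), other filters, 1 transcript per gene, no block, and leaving out experiments or the control libraries of experiment 2. The fits were also run on simulated counts. These were drawn without differences between experiments, so they cannot show how the calls depend on the block. Promoters came from RefSeq (GRCm38.p6), with 8 of 10 members in the table. Plots used matplotlib 3.10.9, and summaries pandas 2.3.3 with numpy 2.4.6 in Python 3.11.15.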

Additional observations from a re-analysis of the deposited data

How the results depend on the processing

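Under 15 alternatives, none of the 345 alternative values of the 23 changes of a member past the threshold had the other sign, and 303 of them stayed past it. Of 969 alternative values of changes that were not past it, 131 had the other sign, and 2 of these passed the test: Prkar1a between CPA1 and CPA18 in mRNA-seq, at -0.38 with TMM and at -0.36 on totals without Ins1, Ins2 and Lars2. The experiment numbers pair the libraries. Without the replicate block, the number of members past the threshold went from 6 to 1 at CPA18 against control and from 5 to 0 between CPA1 and CPA18 in mRNA-seq, and from 1 to 0 at CPA1 in Ribo-seq, and it stayed within 1.5 times in the other comparisons. In the comparisons named, all genes that passed went from 2736 to 150, from 2891 to 112 and from 451 to 224. The cause was not tested. At CPA1 against control in Ribo-seq, the count of 1 became 2 with TMM and 3 with centring on the median gene. It was 0 with limma at either pseudocount. Over all genes tested, 451 passed there (195 lower), against 501 (273 lower) with TMM and 641 (443 lower) with centring. With limma 107 and 117 passed. Between CPA1 and CPA18 in Ribo-seq the count of 4 became 7 with TMM, where all genes that passed went from 1757 (479 lower) to 1555 (874 lower). With an experiment left out, the counts ran from 2 to 6 and from 2 to 5 in mRNA-seq (CPA18 against control and against CPA1) and from 0 to 1, 5 to 6 and 3 to 5 in Ribo-seq (CPA1 and CPA18 against control, CPA18 against CPA1). In the same order, all genes that passed ran from 1375 to 1798, 1320 to 2086, 242 to 293, 1452 to 1618 and 1156 to 1212. For ribosome occupancy the count was 0 under every alternative. Splitting Gnas turned the mRNA-seq change at CPA18 to 0.26 in variant 4 and 0.081 in variant 6, and the Ribo-seq change to -0.11 and -0.64. Glp1r at CPA18 against control stayed past the threshold under all 15 alternatives in both assays, from -2.52 to -1.90 in mRNA-seq and from -2.82 to -2.35 in Ribo-seq. Prkaca at CPA18 in Ribo-seq stayed past it under 6. In CPA18 Ribo-seq, libraries down to 168129 reads limit what can be said of Adcy6, Creb1 and Rapgef4, and of occupancy for most members.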
